A study of Mus musculus with 6 samples.

Results

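Carbonic anhydrases, bicarbonate transporters, sodium-proton exchangers and the subunits of the vacuolar proton pump were followed in mouse thyroid with and without pendrin. Pendrin, encoded by Slc26a4, exchanges anions, among them chloride, iodide and bicarbonate. The members are all genes whose symbols in the array's platform annotation begin with Car and a number, Slc4a, Slc9a, Atp6v0, Atp6v1 or Atp6ap, 57 of the 18193 genes named by a probe set with 1 symbol. They were measured by 123 probe sets, and each gene is represented by the probe set of the highest mean over the 6 arrays, a choice that takes no account of genotype. Microdissected thyroid of mice at postnatal day 15 was hybridised to Affymetrix mouse arrays, 3 from Slc26a4 knockouts (sample numbers 2, 4 and 6, called knockout 2, 4 and 6 here) and 3 from Slc26a4 heterozygotes (heterozygous 1, 3 and 5). The controls are heterozygotes, so they too carry a mutant allele, and wild-type thyroid was not analysed here. Strain, sex, the removed part of the gene and how many mice gave each RNA are not given in the labels. No label ties an array to a mouse of its own, so the p-values rest on a spread between samples that may be technical.

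Carbonic anhydrases convert carbon dioxide and water to bicarbonate and a proton and back. Slc4 proteins carry bicarbonate across membranes, either in exchange for chloride or together with sodium, and Slc9 proteins exchange sodium for protons. The vacuolar proton pump, or V-ATPase, has a cytosolic V1 sector that splits ATP and a membrane V0 sector that passes protons, and it acidifies endosomes and lysosomes. In the thyroid follicular cell thyroglobulin is taken up from the lumen and digested in lysosomes to release hormone, and pendrin lies in the apical membrane that faces the lumen.

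Promoter sequence is shown for the catalytic subunit gene Atp6v1a and the proteolipid gene Atp6v0b, which carry the motif CACGTG, and for Slc4a2, the member with the smallest p. CACGTG is the core of the site bound by Tfeb, Tfe3 and Mitf, transcription factors known as regulators of lysosomal genes. Each line gives the 250 bases before a RefSeq start site on build GRCm38.p6, 5′ to 3′ on the gene's strand, with CACGTG in capitals. Atp6v1a lies on the minus strand at chr16:44139260-44139509, Atp6v0b on the minus strand at chr4:117887330-117887579 and the first of the listed starts of Slc4a2 on the plus strand at chr5:24424982-24425231.
Atp6v1a: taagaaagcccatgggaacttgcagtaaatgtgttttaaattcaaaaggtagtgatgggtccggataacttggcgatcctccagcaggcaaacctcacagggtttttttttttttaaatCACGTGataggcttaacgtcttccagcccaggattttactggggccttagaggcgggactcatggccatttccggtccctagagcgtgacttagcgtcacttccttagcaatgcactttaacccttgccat
Atp6v0b: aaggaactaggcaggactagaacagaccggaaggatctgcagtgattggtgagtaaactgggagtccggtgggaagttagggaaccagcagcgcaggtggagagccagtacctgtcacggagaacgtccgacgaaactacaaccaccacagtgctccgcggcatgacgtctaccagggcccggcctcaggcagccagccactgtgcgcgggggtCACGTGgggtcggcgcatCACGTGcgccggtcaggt
Slc4a2: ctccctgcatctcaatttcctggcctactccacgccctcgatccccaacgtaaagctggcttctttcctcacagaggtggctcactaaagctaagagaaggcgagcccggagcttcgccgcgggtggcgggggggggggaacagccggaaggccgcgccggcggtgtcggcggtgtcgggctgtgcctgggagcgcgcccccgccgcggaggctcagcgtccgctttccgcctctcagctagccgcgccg
The motif began 131 bases before the start of Atp6v1a and 36 and 18 bases before that of Atp6v0b. It is its own reverse complement, so a search of one strand covers both. Of the 41 members with a promoter window, 4 held it (Atp6v1a, Atp6v0b, Car6 and Slc9a3), and among V-ATPase genes it was 2 of 16. Counted likewise per gene, 1854 of 27025 genes with a window (6.86%) held it. The window of Slc4a2 did not hold these letters.

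Levels below are linear array signals, shown for each array or as mean ± SD of a group (n = 3 arrays), and differences are knockout minus heterozygous on the log2(signal + 16.7) scale with 95% intervals from limma. That scale understates the difference of dim genes. Signals of different probe sets are not set against each other, since each binds with its own strength. All 10 measured markers of follicular cells, Tg among them, were above background on all 6 arrays. Background was the brightest signal of 27 bacterial control probe sets, 22.9. The probe set of Slc26a4 itself read under it on every array (7.29, 2.10 and 15.7 in knockouts, against 4.997, 4.59 and 12.1 in heterozygotes) and does not check the genotypes. Tissue around the gland differed between arrays. Thymocyte markers summed to 2964 on knockout 4, against 123.7 to 178.2 on the other arrays, and parathyroid markers to 3406 on knockout 6 and 990.1 on heterozygous 1, against 15998 to 16851 on the others. Summed skeletal muscle markers spanned 8924 to 47612 in knockouts, against 26276 to 48879.8 in heterozygotes. In whole tissue, fewer cells of a type and less RNA per cell cannot be told apart.

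Of the 57 members, 44 were above background on all 6 arrays, and the same 44 passed the filter on dim probe sets and were tested. None passed the test between knockout and heterozygous thyroid (limma, adjusted p = 1.0 for each), and 0% of the 27022 probe sets tested passed the threshold of 0.05. Before adjustment limma placed 0 of the 44 members under 0.05, and 0.511% of all probe sets. The other tool, which does not share variance between probe sets, had 1 (Atp6v0a1), against 1.05%, and 0 after adjustment. The knockout mean was higher for 22 members and lower for 22, with a median log2 difference of -0.0053, against -0.0021 over all probe sets tested. The median size of a difference was 0.11 for the members and 0.090 for all probe sets. On this scale the interval lay inside -1 to 1 for 42 of the 44 members, and inside -0.5 to 0.5 for 21. The exceptions to the wider bound were Atp6v0e2 and Slc4a1.

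**Figure D1:**
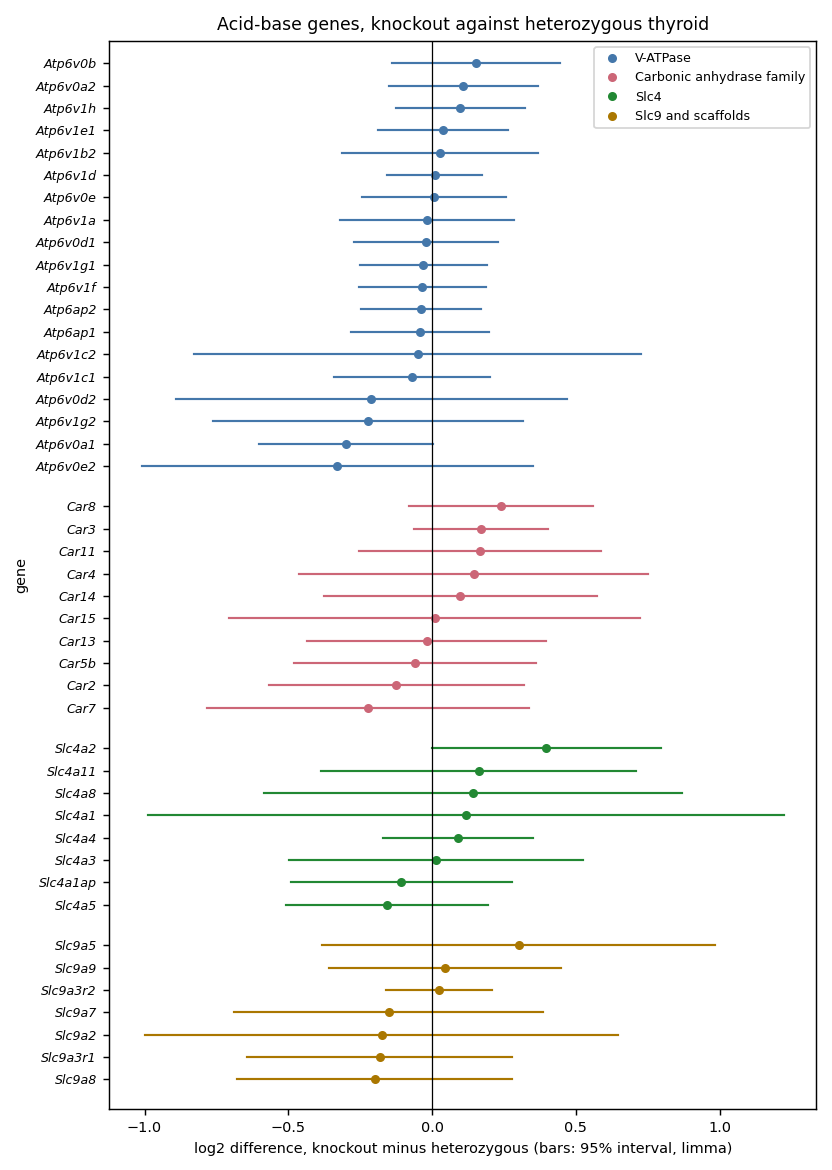
Log2 difference (knockout minus heterozygous) of the 44 tested genes, with limma's 95% interval as bars, grouped by family. All intervals reach 0, from Slc4a2 at 0.40 to Atp6v0e2 at -0.33, and those of most V-ATPase subunits are narrow.

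By its brightest probe set, no member had the 3 knockout arrays wholly above or below the 3 heterozygous arrays. Of all probe sets 3.68% did (1.64% higher, 2.04% lower). With quantile or cyclic loess normalization 1 member, Atp6v0a1, lay wholly lower in knockouts, against 3.86% and 3.93% of all probe sets in either direction. The count also moved with single arrays. Without knockout 2 the remaining knockouts lay outside the heterozygous range for 11 members, 3 higher and 8 lower, against 17.7% of all probe sets. The 8 lower were Atp6ap1, Atp6ap2, Atp6v0a1, Atp6v0d2, Atp6v0e2, Slc4a5, Slc9a3r1 and Slc9a7, and the 3 higher were Car14, Car8 and Slc4a4. Unadjusted p was then under 0.05 for 5 members (Atp6v0a1, Atp6v0d2, Atp6v0e2, Slc4a5 and Slc9a3r1), against 3.48% of all probe sets, and none passed after adjustment (limma). Leaving out other arrays gave 4 members without knockout 4 (9.41% of all probe sets), 2 without knockout 6 (13.2%), 3 without heterozygous 1 (8.77%), 1 without heterozygous 3 (10.2%) and 5 without heterozygous 5 (14.2%).

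Of the carbonic anhydrases of the cytosol and mitochondria, 5 of 7 were tested, 1 with the higher and 4 with the lower knockout mean, and none passed. Car2, the fast cytosolic enzyme that partners acid and bicarbonate transporters in many epithelia, read 2951, 2413 and 1933 on knockouts 2, 4 and 6, against 2929, 2981 and 2042 on heterozygous 1, 3 and 5. The groups overlapped widely, with the lowest values on knockout 6 and heterozygous 5. The log2 difference was -0.12 (interval -0.57 to 0.32), and it was 0.030 without knockout 6. Car3, an enzyme of low activity that is abundant in fat and muscle, read 8898, 9349 and 10953 in knockouts, against 8133, 8186 and 9573 in heterozygotes. Only heterozygous 5 reached into the knockout range. The difference was 0.17 (interval -0.06 to 0.40; limma, unadjusted p = 0.128, adjusted p = 1.0), and the 3 further probe sets of Car3 gave 0.38, 0.07 and 0.44. On the same arrays the summed fat markers read 32091, 42736 and 43309 in knockouts, against 37304, 34232 and 41139 in heterozygotes, with all 9 measured markers above background throughout. Their part in the Car3 values was not tested.

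Car13, another cytosolic enzyme, averaged 675.1 ± 129.3 in knockouts and 683.1 ± 119.7 in heterozygotes. The mitochondrial Car5b averaged 476.2 ± 49.5 in knockouts and 502.6 ± 104.4 in heterozygotes, and the cytosolic Car7 62.5 ± 14.5 and 75.7 ± 16.1 in the same order. Neither difference exceeded the spread between arrays. Car1, the second major carbonic anhydrase of red cells, and Car5a, the liver mitochondrial enzyme, were above background on 1 array each and were not tested. In the RefSeq gene order Car13, Car1, Car3 and Car2 follow each other with no other protein-coding gene between them. Within this cluster Car1 was near background in the same tissue in which Car2, Car3 and Car13 were above it on all arrays.

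Among carbonic anhydrases bound to membranes or secreted, 3 of 6 were tested. Car4, an enzyme anchored to the outer face of the membrane in capillaries and some epithelia, read 444.6, 694.4 and 715.0 in knockouts, against 522.0, 405.6 and 764.3 in heterozygotes. The values were low on knockout 2 and heterozygous 1 and 3 and high on the other arrays of both genotypes. The difference was 0.14 with a wide interval of -0.46 to 0.75. It was -0.062 without heterozygous 3. Car14, a membrane-spanning enzyme, averaged 330.6 ± 81.8 in knockouts and 302.5 ± 32.1 in heterozygotes, and the membrane-anchored Car15 54.1 ± 27.5 and 50.7 ± 8.62. Car12 and Car9, transmembrane enzymes, read near background, at 20.0 ± 5.71 and 14.6 ± 6.88 in knockouts, against 28.6 ± 5.62 and 20.3 ± 8.73 in heterozygotes. Car6, the secreted salivary enzyme, was under background on every array.

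Carbonic anhydrase-related proteins keep the fold of the enzymes but have lost catalysis. Car8, known in the mouse cerebellum as a partner of the inositol trisphosphate receptor, read 456.5, 501.2 and 548.9 in knockouts, against 418.6, 390.4 and 459.2 in heterozygotes. Knockout 2 and heterozygous 5 met within 3 signal units, and the other arrays did not overlap. The log2 difference was 0.24 (interval -0.08 to 0.56; limma, unadjusted p = 0.124, adjusted p = 1.0), or 1.18-fold. Its 2 further probe sets were too dim to test. Car11 averaged 224.2 ± 39.3 in knockouts and 196.2 ± 15.0 in heterozygotes, a difference of 0.17 (interval -0.26 to 0.59). Car10 read near background in both.

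**Figure D2:**
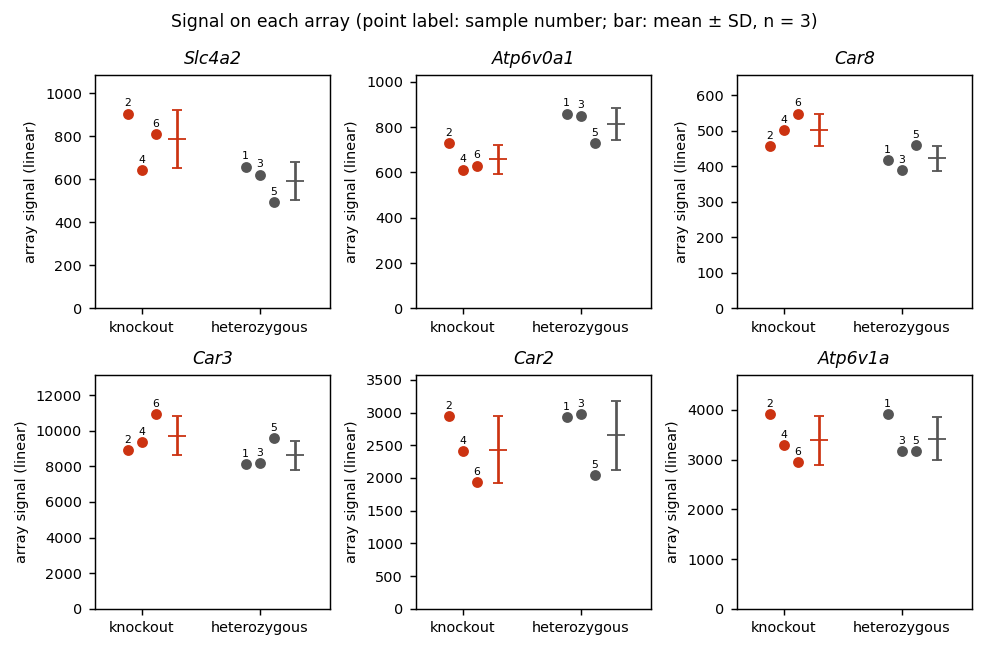
Linear signal on each array (points, labelled by sample number) with mean ± SD (n = 3) for Slc4a2, Atp6v0a1, Car8, Car3, Car2 and Atp6v1a. In each panel at least 1 knockout and 1 heterozygous value cross, for Atp6v0a1 at 731.2 and 730.7.

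The chloride and bicarbonate exchangers held the member with the smallest p. Slc4a2, the exchanger found in the basolateral membrane of many epithelia, read 906.0, 641.2 and 810.8 on knockouts 2, 4 and 6, against 659.1, 621.9 and 492.7 on heterozygous 1, 3 and 5. Knockout 4 lay under heterozygous 1, while knockouts 2 and 6 stood above all heterozygous arrays. The means were 786.0 ± 134.1 in knockouts and 591.2 ± 87.3 in heterozygotes. The log2 difference was 0.40 ± 0.17 (SE), or 1.32-fold on that scale, with an interval of -0.0012 to 0.80. By limma the unadjusted p was 0.0506 and the adjusted p 1.0. It was above 0 under every setting tried, from 0.21 with array weights to 0.61 without knockouts 4 and 6. No second probe set measures this gene, so the value has no check from another probe set. Slc4a3, the exchanger of heart and brain, averaged 156.2 ± 27.0 in knockouts and 155.5 ± 35.6 in heterozygotes. Slc4a9 was near background, above it on 2 arrays.

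Slc4a1, the anion exchanger of red cells, had the widest interval of all members (-0.99 to 1.23). It read 44.1, 121.6 and 103.9 in knockouts, against 33.7, 75.5 and 153.7 in heterozygotes, a 4.56-fold span over the 6 arrays. The difference was 0.12. A second tested probe set gave 0.42 (interval -0.28 to 1.13) and was highest on knockout 4. The red cell heme enzyme Alas2 read 281.2, 482.5 and 311.7 in knockouts, against 118.4, 166.6 and 310.4 in heterozygotes (0.86, interval 0.08 to 1.65; limma, unadjusted p = 0.0345, adjusted p = 1.0). Both genes were lowest on heterozygous 1, and within knockouts both were highest on knockout 4. Of 9 measured erythroid markers only Alas2 and Add2 were above background on all arrays. Add2 averaged 40.6 ± 14.1 in knockouts and 41.7 ± 19.9 in heterozygotes and was too dim to test. It was lowest on heterozygous 1 and, like Slc4a1 by its brightest probe set, highest on heterozygous 5. All 9 markers summed to 371.5 to 605.9 in knockouts, against 172.1 to 447.1 in heterozygotes, with most of the sum from Alas2. By their brightest probe set with 1 symbol, Hba-a1, Epb42, Trim10, Rhd and Kel were under background throughout. Probe sets with several symbols were not read for these markers. Hemgn was above background on 2 knockout arrays and Ermap on 1, and neither on a heterozygous array. The part of red cell precursors in Slc4a1 was not tested.

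Of the sodium-coupled bicarbonate transporters, Slc4a4 and Slc4a5 were well above background. Slc4a4, the electrogenic cotransporter known from kidney and pancreas, read 3342, 4364 and 4043 in knockouts, against 3527, 3519 and 3934 in heterozygotes. Knockout 2 was the lowest of all arrays and knockouts 4 and 6 the highest. The difference was 0.09 (interval -0.17 to 0.35), and its 3 other tested probe sets lay between -0.03 and 0.14. Slc4a5, a second electrogenic cotransporter, read 2462, 1826 and 1656 in knockouts, against 1994, 2242 and 2315 in heterozygotes. Knockout 2 was the highest of all arrays and knockouts 4 and 6 the lowest, where for Slc4a4 knockout 2 had been the lowest. Its difference was -0.16 (interval -0.51 to 0.20). The sodium-driven chloride and bicarbonate exchanger Slc4a8 averaged 67.4 ± 5.59 in knockouts and 63.8 ± 32.8 in heterozygotes, and Slc4a10, known from brain, was above background on 1 array.

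Slc4a11, a transporter of the corneal endothelium that does not carry bicarbonate, read 51.3, 57.2 and 85.4 in knockouts, against 58.0, 50.5 and 56.1 in heterozygotes. Knockout 6 alone stood out, and the difference was 0.16 (interval -0.39 to 0.71). Without knockout 6 it was -0.012. Slc4a1ap, which is named as a partner of Slc4a1 and is no transporter, averaged 279.6 ± 34.2 in knockouts and 302.5 ± 37.8 in heterozygotes.

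Of the 9 Slc9 members 7 were tested and none passed. At the plasma membrane Slc9a2, an epithelial exchanger, read 131.4, 83.9 and 39.2 in knockouts, against 80.1, 112.2 and 79.3 in heterozygotes. The knockouts alone spanned 3.35-fold and enclosed every heterozygous value. The difference was -0.18 (interval -0.997 to 0.65), and 0.20 without knockout 6. Slc9a3, the apical exchanger of kidney and gut, was above background on 2 arrays, and Slc9a4, the exchanger of gastric parietal cells, on 0.

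Among exchangers of internal membranes, Slc9a5, a neuronal exchanger that cycles through recycling endosomes, read 68.6, 49.4 and 68.7 in knockouts, against 26.6, 62.2 and 58.7 in heterozygotes. The difference of 0.30 (interval -0.38 to 0.98) rested on heterozygous 1, and it was 0.022 without that array. The Golgi exchangers Slc9a7 and Slc9a8 averaged 268.6 ± 84.1 and 146.7 ± 29.7 in knockouts, against 294.4 ± 48.2 and 170.3 ± 28.3 in heterozygotes. The endosomal Slc9a9 averaged 434.3 ± 78.1 in knockouts and 417.4 ± 43.8 in heterozygotes. None of these exceeded the spread between arrays.

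The scaffolds that the symbols group with Slc9 carry no ions. Slc9a3r1, which ties transporters to ezrin beneath the apical membrane, read 3489, 2601 and 1943 in knockouts, against 2738, 3380.4 and 2790.3 in heterozygotes. The extremes of all 6 arrays were knockout 2 and knockout 6. The difference was -0.18 (interval -0.64 to 0.28), the 2 further probe sets gave -0.17 and -0.27, and without knockout 6 it was 0.027. Slc9a3r2, its relative, varied little between arrays by its brightest probe set, at 3081 ± 97.0 in knockouts and 3032 ± 123.7 in heterozygotes (interval -0.16 to 0.21). Its 6 tested probe sets gave differences from -0.15 to 0.14. For the second brightest the knockout arrays lay wholly below the heterozygous ones, at 2609 ± 39.0 in knockouts and 2901 ± 216.9 in heterozygotes.

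Most V-ATPase subunits had small differences, as had most genes. Of its 22 measured genes 19 were tested, and 14 of the 19 differed by less than 1.1-fold between the genotype means, as did 9118 of 12904 genes, each by its brightest tested probe set. Their median log2 difference was -0.03, the median size of a difference 0.04, and the median span from the lowest to the highest array 1.25-fold. Over all genes these figures were -0.0042, 0.081 and 1.42-fold. The interval lay inside -0.5 to 0.5 for 14 of the 19 and for 7121 of the 12904 genes.

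In the V1 sector, 10 of 12 genes were tested. The catalytic subunit Atp6v1a read 3911, 3295 and 2952 in knockouts, against 3921, 3166 and 3178 in heterozygotes. Knockout 2 and heterozygous 1 were high by the same amount, and the difference was -0.02 (interval -0.32 to 0.29). A second probe set gave 0.08, and the value was 0.076 without knockout 6 and 0.084 without heterozygous 1. Atp6v1h, the regulatory subunit that couples V1 to V0, read 2265, 2025 and 2153 in knockouts, against 2066, 1845 and 2108 in heterozygotes, with a difference of 0.10 (interval -0.13 to 0.32). The central stalk subunit Atp6v1d had the narrowest interval of the family (-0.16 to 0.17), at 4671 ± 158.5 in knockouts and 4641 ± 115.8 in heterozygotes. The stalk and stator subunits Atp6v1c1, Atp6v1e1, Atp6v1f and Atp6v1g1 had differences between -0.07 and 0.04.

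The V1 sector includes isoforms known from particular tissues. Atp6v1b2, the widely used B subunit, averaged 843.2 ± 147.7 in knockouts and 820.6 ± 51.4 in heterozygotes. Atp6v1b1, the B subunit of acid-secreting cells of the kidney and inner ear, was under background on all 6 arrays, at 8.90 ± 3.95 in knockouts and 8.998 ± 4.51 in heterozygotes. Foxi1, the transcription factor that drives Atp6v1b1 and Slc26a4 in those cells, was also under background on all 6 arrays. Atp6v1e2, the testis isoform, was above background on 1 array, and Atp6v1c2, known from kidney and lung, averaged 53.6 ± 31.5 in knockouts and 51.9 ± 8.36 in heterozygotes. The neuronal Atp6v1g2 averaged 256.3 ± 32.2 in knockouts and 309.4 ± 88.0 in heterozygotes.

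In the V0 sector 7 of 8 genes were tested. Atp6v0a1, an isoform of the large membrane subunit known from neurons and other cells, read 731.2, 612.5 and 630.7 in knockouts, against 860.2, 850.6 and 730.7 in heterozygotes. Only knockout 2 and heterozygous 5 met, within 1 signal unit. The means were 658.1 ± 63.9 in knockouts and 813.8 ± 72.2 in heterozygotes, a log2 difference of -0.30 ± 0.13 (SE; interval -0.60 to 0.002; limma, unadjusted p = 0.051, adjusted p = 1.0). Its further tested probe sets gave 0.22 for the second brightest and -0.18 for the dimmest, and the mean over all 3 gave -0.087. For the dimmest the knockout arrays lay wholly below the heterozygous ones, at 103.6 ± 9.30 in knockouts and 119.4 ± 4.88 in heterozygotes. The sister isoform Atp6v0a2 of the Golgi and endosomes read 901.0, 894.4 and 907.4 in knockouts, against 835.8, 768.7 and 904.4 in heterozygotes (0.11, interval -0.15 to 0.37). The kidney isoform Atp6v0a4 read near or under background and was not tested, at 5.31, 2.29 and 8.51 in knockouts, against 27.2, 28.4 and 2.09 in heterozygotes. Tcirg1, the isoform of osteoclasts and lysosomes, which carries no Atp6v0 symbol and is no member, averaged 465.8 ± 76.2 in knockouts and 464.9 ± 39.5 in heterozygotes.

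The d subunits of V0, which link the rotor to the stalk, had intervals of unequal width. The widely used Atp6v0d1 varied little, at 2385 ± 198.1 in knockouts and 2422 ± 237.8 in heterozygotes. Atp6v0d2, known from osteoclasts, kidney and macrophages, read 1059, 627.1 and 430.03 in knockouts, against 871.1, 801.5 and 645.3 in heterozygotes. Its span over the arrays was 2.46-fold, with both extremes in knockouts, and its difference was -0.21 (interval -0.89 to 0.47). Of the 13 macrophage and osteoclast markers 10 were above background on all arrays, and they summed to 14572, 17963 and 17392 in knockouts, against 15483, 15136 and 17235 in heterozygotes. Within the knockouts this sum was lowest where Atp6v0d2 was highest. Most of the sum came from Csf1r, Lyz2, Mrc1 and Ctss, so it says little of the dimmer markers. The part of macrophages or osteoclasts in the Atp6v0d2 values was not tested. On this macrophage and osteoclast list Acp5, Ctsk and Itgb3 were above background on all 6 arrays, Mmp9 on 5 and Oscar on 1. The osteoclast fusion gene Dcstamp was under background on every array. Atp6v0e2, the second small e subunit, read 461.6, 294.4 and 201.5 in knockouts, against 476.3, 394.8 and 301.0 in heterozygotes (-0.33, interval -1.01 to 0.35), while its widely used counterpart Atp6v0e differed by 0.01 (interval -0.24 to 0.26). The proteolipid Atp6v0b averaged 2491 ± 277.5 in knockouts and 2242 ± 289.6 in heterozygotes.

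The accessory proteins Atp6ap1, which helps to assemble the pump, and Atp6ap2, also known as the prorenin receptor, had small differences with narrow intervals. Atp6ap1 averaged 4522 ± 551.4 in knockouts and 4641 ± 304.9 in heterozygotes (-0.04, interval -0.28 to 0.20). Atp6ap2 read 6738, 5605 and 5593 in knockouts, against 6318, 5949 and 6088 in heterozygotes (-0.04, interval -0.25 to 0.17), and its 3 probe sets lay between -0.06 and -0.02. Both were highest on knockout 2.

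Probe sets of a gene were not always alike. Of 20 members with more than 1 tested probe set, the differences had the same sign throughout in 6 and mixed signs in 14. The 6 were Atp6ap2, Car3, Car4, Car5b, Slc4a1 and Slc9a3r1.

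The order of the arrays was set beside that of the summed tissue markers. Atp6v0d2, Atp6v0e2, Atp6v0d1 and Atp6ap1 were ordered over the arrays exactly as the summed follicular cell markers within both genotypes. They were highest on knockout 2 and heterozygous 1 and lowest on knockout 6 and heterozygous 5. The follicular markers summed to 46319, 41678 and 37785 on knockouts 2, 4 and 6, against 48104, 42829 and 39063 on heterozygous 1, 3 and 5. Taken singly, Slc5a5, Iyd, Dio1, Slc26a7 and Slc5a8 had this order, while Tg, Tshr, Pax8, Nkx2-1 and Cdh16 did not. Tg was lowest of the knockouts on knockout 2. The members so ordered were 4 of 44, where 6.84% of all probe sets had that order. Car3 alone had the opposite order, as did 5.49% of all probe sets, and both counts are near the shares over all probe sets. Skeletal muscle markers, all 12 of them above background throughout, summed to 47612, 22092 and 8924 in knockouts, against 48879.8, 34511 and 26276 in heterozygotes. Their sum so had the same order as that of the follicular markers. The parts of follicular cells and muscle in these values cannot be told apart from the order alone, and they were not tested. On knockout 6, 12 members had their highest value and 14 their lowest, the most of any array on both counts, and 27.8% and 22.9% of all probe sets did so.

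**Figure D3:**
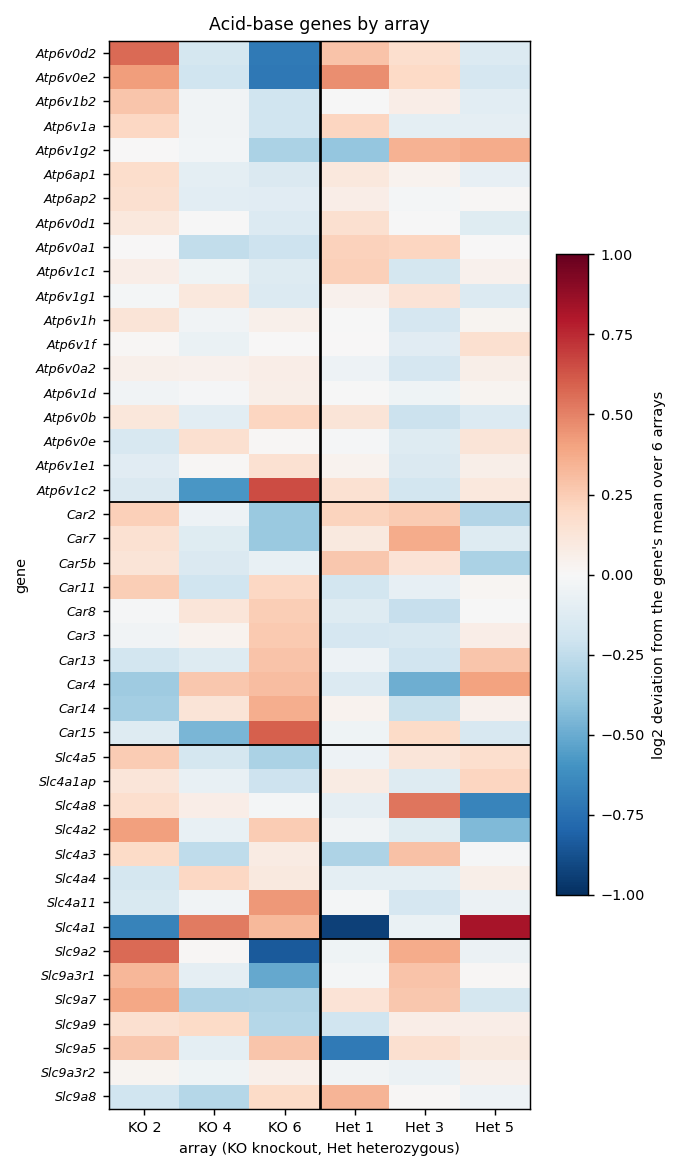
Log2 deviation of the 44 tested genes from their own mean, by array, knockouts left of heterozygotes, with families separated by lines and sorted by knockout 2 minus knockout 6. Knockout 2 and knockout 6 show opposite colours in the top rows of each family (Atp6v0d2, Car2, Slc4a5, Slc9a2), while Atp6v1d and Slc9a3r2 are nearly white throughout.

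**Figure D4:**
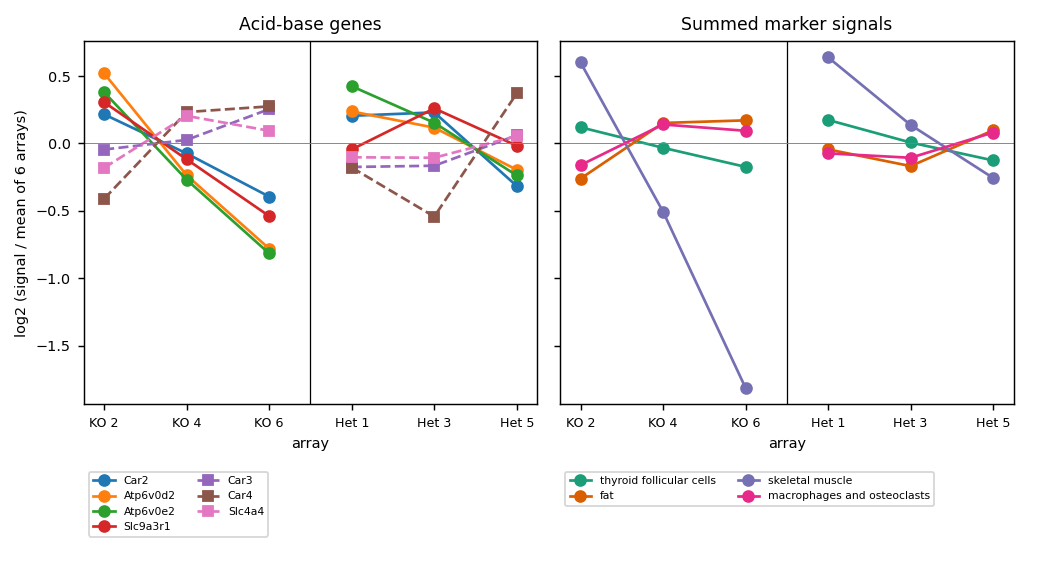
Signal over the mean of the 6 arrays (log2) for 7 members chosen after their values were seen (left) and for summed markers of 4 tissues (right). Lines join the arrays of a genotype. Car2, Atp6v0d2, Atp6v0e2 and Slc9a3r1 are lower on knockout 6 than on knockout 2, as are the summed follicular and muscle markers. Car3, Car4, Slc4a4 and the summed fat and macrophage markers are higher.

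Other genes of acid-base transport and its control gave no call either. Of 43 measured on a list of 47, 34 were tested, 11 with the higher and 23 with the lower knockout mean, and 0 passed (limma, 0 at an unadjusted p under 0.05). The list's median difference was -0.04, against -0.0021 over all probe sets tested. Of those, 13318 had the higher and 13704 the lower knockout mean. Whether the list as a set differs from them was not tested. The knockouts lay wholly below the heterozygotes for 2 of the 34, Rhbg and Mitf, against 2.04% of all probe sets. The ammonia transporter Rhbg read 87.9, 101.6 and 81.6 in knockouts, against 106.8, 162.7 and 114.5 in heterozygotes (-0.42, interval -0.92 to 0.08). Mitf, which with Tfeb and Tfe3 binds the motif shown above, read 1796, 1674 and 1319 in knockouts, against 1823, 1867 and 1928 in heterozygotes (-0.24, interval -0.54 to 0.06). Tfeb averaged 163.9 ± 24.5 in knockouts and 154.7 ± 27.8 in heterozygotes, and Tfe3 1689 ± 68.8 and 1757 ± 51.6. The lactate and proton carrier Slc16a3 had the third smallest p among those lower (-0.38, interval -1.13 to 0.37). Slc16a1, of the same family, read 4427, 5921 and 6139.7 in knockouts, against 4394, 4464 and 5735 in heterozygotes (0.17, interval -0.18 to 0.52). It had the smallest p among those higher, followed by Ahcyl1, a regulator of Slc4a4 (0.09), and the anion transporter Slc26a11 (0.19). Slc26a7, an anion exchanger of thyroid and kidney, differed by -0.04 (interval -0.27 to 0.19).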

How the data were processed

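The deposited values are linear signal intensities, 1 per probe set and array, made by the authors with GCOS, the array maker's software, per the submitters' processing notes. The labels give neither its version nor its settings. The mean of each array after trimming 2% at each end was 500.002, so the arrays carry a common scaling, which was kept. It would hide a shift of most transcripts in the same direction. Of 45101 probe sets, 34958 carried 1 gene symbol in the platform annotation, and RefSeq altered 0 of the members' symbols. Signals were analysed as log2(signal + 16.7), 16.7 being the 25th percentile of all values. The 64 control probe sets and probe sets at or under the 40th percentile of mean log2 value (a signal of 43.5) were left out. The knockout and heterozygous arrays were fitted by limma 3.58.1 under R 4.3.3 (lmFit, eBayes with trend, Benjamini-Hochberg over 27022 probe sets, threshold 0.05), tested on simulated data. A test that does not share variance was the other tool. The number of arrays limits the precision.

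Values on each array are given for Car2, Slc4a2, Atp6v1a and the member of each role with the smallest p. Others so shown (Slc4a1, Slc4a4, Atp6v0a2, Atp6v0d2, Atp6v0e2, Alas2, Slc16a1) were chosen after their values were seen. Members and lists were chosen with earlier results of these data known. Some genes of these families are not reported here.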

Additional observations from a re-analysis of the deposited data

How the results depend on the processing

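No member and no probe set passed (limma, 0 called) under any of the alternatives run, which were quantile and cyclic loess normalization, a pseudocount 0.25 or 4 times as large, the dim filter dropped or raised to the 60th percentile, robust eBayes and eBayes with no trend, array weights, each array left out, the pairs of arrays below, a block and the other tool. The members' median log2 difference lay between -0.028 and 0.0070 with single arrays left out, and it was 0.097 without knockouts 4 and 6, where knockout 2 stands alone and is assumed to vary like the other group. The number of members without overlap was 1 to 11 with single arrays left out, 1 with quantile and 1 with cyclic loess normalization, 7 without heterozygous 1 and knockout 6, and 17 without knockouts 4 and 6. Small differences changed sign, and the cause was not tested beyond the arrays left out. With single arrays left out the log2 differences spanned -0.30 to 0.030 for Car2, -0.13 to 0.084 for Atp6v1a, -0.13 to 0.0068 for Atp6ap2, -0.062 to 0.38 for Car4, -0.012 to 0.28 for Slc4a11, -0.50 to 0.20 for Slc9a2 and -0.39 to 0.027 for Slc9a3r1. Without heterozygous 1 and knockout 6 they were 0.11 for Car2, 0.18 for Atp6v1a, 0.030 for Atp6ap2, -0.040 for Slc9a5, -0.0038 for Car4 and 0.13 for Slc9a2. Without knockouts 4 and 6 they were 0.17 for Car2, 0.20 for Atp6v1a, 0.14 for Atp6ap2, -0.29 for Car4, -0.072 for Slc4a11, 0.48 for Slc9a2, 0.17 for Slc4a5 and 0.24 for Slc9a3r1. With a block that set samples 1, 2 and 3 apart from 4, 5 and 6 they were 0.039 for Car2, 0.062 for Atp6v1a, 0.0077 for Atp6ap2, -0.081 for Car4 and 0.025 for Slc9a2, and averaging each gene's probe sets gave 0.033 for Atp6v1a. Among the named members followed through the alternatives, Slc4a2, Atp6v0a1, Car8, Car3 and Atp6v1h kept their sign under each. Each had the smallest p of its role, and the alternatives reuse the same arrays, so a kept sign is no independent check. The second brightest probe set of Atp6v0a1 had the opposite sign (0.22). No paired analysis was possible because the knockout and heterozygous samples share no sample number.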
